A study of Mus musculus with 6 samples.

Results

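The unfolded protein response (UPR) of the endoplasmic reticulum (ER) was examined through 10 genes: the sensors *Ern1*, *Atf6* and *Eif2ak3*, the transcription factor *Xbp1*, the chaperones and foldases *Hspa5*, *Hsp90b1*, *Calr*, *Pdia4* and *Dnajb9*, and the degradation factor *Herpud1*. The rule lists them by name and uses no measured value, but the members and the other lists were chosen with earlier results of these data known. Each was represented by its RefSeq transcript with the highest total count, and all 10 were found among 24562 gene symbols. RNA of unstimulated (Naive) bone marrow-derived macrophages (BMDMs) was sequenced in 3 libraries from control mice, Cre-negative *Acly* fl/fl animals labelled WT, and 3 libraries from AclyM-KO mice, labelled KO. The mice had a C57BL/6J background and carried *loxP* sites around exon 9 of *Acly*, the gene of ATP citrate lyase, which makes cytosolic acetyl-CoA from citrate. AclyM-KO mice also carried Cre under the *Lyz2* promoter, which is active in the myeloid lineage. The series' design text gives the mice as female, while the methods describe cultured cells in general as coming from marrow of both sexes. Donors of cultured cells were in general 8 to 14 weeks old, an age not stated for these libraries on their own. Marrow cells were differentiated for 7 days in L929-conditioned medium, and the study's legends for plots of single genes from these sequencing data describe the replicates as technical ones from 3 pooled mice. Each genotype then rests on 1 pool, and every n of 3 and every adjusted p given here measures the spread between libraries of a pool and not that between mice.

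The UPR adjusts the folding capacity of the ER to the load of unfolded protein. IRE1, encoded by *Ern1*, cuts *Xbp1* mRNA, and the rejoined message encodes a transcription factor for chaperone, translocation and degradation genes. ATF6 travels to the Golgi, where the site-1 and site-2 proteases that also process SREBPs release its transcription factor domain. PERK, encoded by *Eif2ak3*, phosphorylates eIF2α, which lowers general translation and favours that of ATF4. BiP, encoded by *Hspa5*, binds the sensors in unstressed cells. In macrophages the sensors have been studied because free cholesterol and saturated fatty acids in ER membranes can activate them.

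Of the 10 genes, 1 rose and 1 fell in AclyM-KO macrophages, and these were a chaperone and a sensor. *Hspa5* was 1.23-fold higher and *Ern1* was at 0.784 of its control level, whereas the other 8 did not pass the threshold of 0.05 on the adjusted p (quasi-likelihood test of edgeR, Benjamini-Hochberg adjustment over all genes). Over all 11470 genes tested, 12.3% passed this threshold, 6.70% upward and 5.65% downward. The 10 genes had a median log2 fold change of -0.04, beside 0.00026 over all genes tested, with a range from -0.35 to 0.30. All 10 passed the filter on low counts, with at least 482 counts in every library.

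The promoters of 3 chaperones are shown first, because the ER stress response element (ERSE), through which ATF6 acts together with NF-Y, lies in them. The 250 bases before the RefSeq start (build GRCm38.p6) are printed 5′ to 3′ on the strand of the gene, with the fixed letters of each match in capitals. The letters searched were CCAAT and CCACG with 9 bases of any kind between them, on both strands, within a window that also held the 50 bases after the start. *Ern1* is printed because it is the sensor that fell.
Hspa5, chr2:34771840-34772089, plus strand: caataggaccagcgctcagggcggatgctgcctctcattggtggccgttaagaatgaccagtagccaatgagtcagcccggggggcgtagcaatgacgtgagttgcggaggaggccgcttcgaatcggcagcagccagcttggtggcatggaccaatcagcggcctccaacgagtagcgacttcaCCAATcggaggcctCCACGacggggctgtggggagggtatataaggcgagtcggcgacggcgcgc
Hsp90b1, chr10:86705445-86705694, minus strand: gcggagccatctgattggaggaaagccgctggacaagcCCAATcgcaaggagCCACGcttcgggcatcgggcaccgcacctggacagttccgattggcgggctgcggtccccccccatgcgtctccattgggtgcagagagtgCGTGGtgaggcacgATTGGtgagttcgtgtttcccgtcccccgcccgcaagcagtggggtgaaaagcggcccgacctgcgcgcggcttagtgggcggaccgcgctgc
Calr, chr8:84846932-84847181, minus strand: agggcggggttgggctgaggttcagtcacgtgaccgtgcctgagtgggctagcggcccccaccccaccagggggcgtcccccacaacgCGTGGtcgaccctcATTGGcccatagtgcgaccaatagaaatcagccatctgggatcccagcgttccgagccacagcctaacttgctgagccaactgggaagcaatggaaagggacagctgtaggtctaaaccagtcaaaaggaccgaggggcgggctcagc
Ern1, chr11:106487797-106488046, minus strand: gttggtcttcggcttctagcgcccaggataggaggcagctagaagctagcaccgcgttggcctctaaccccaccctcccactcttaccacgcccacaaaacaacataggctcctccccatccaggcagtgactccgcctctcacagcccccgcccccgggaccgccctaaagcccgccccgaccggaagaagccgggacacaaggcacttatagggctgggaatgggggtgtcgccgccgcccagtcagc

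An exact ERSE was found in 3 of the 9 UPR genes with a promoter in the RefSeq table (*Atf6* has no entry), and in 0.119% of all 32851 promoters of the same length. The genes were listed by name for their part in the UPR, so setting these shares side by side is no test of enrichment. In *Hspa5* it lay from -65 to -47 relative to the start. *Hsp90b1* held a forward copy from -212 to -194 and a reverse copy from -107 to -89, and *Calr* held a reverse copy from -162 to -144. The related element ERSE-II (ATTGG and CCACG with 1 base between them, both strands), found in 0.0365% of all promoters, was present in *Herpud1* from -52 to -42, and the match did not overlap an ERSE. It is shown with 10 bases on each side.
Herpud1, chr8:94386367-94386397, plus strand: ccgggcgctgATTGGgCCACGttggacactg

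The core of the XBP1-bound UPR element (TGACGTGG, both strands), found in 0.676% of all promoters, had no match in the 9 promoters. Among the genes of other ER lists, described further on, an exact ERSE was found in 5 of 16 chaperone and foldase genes (*Canx*, *Creld2*, *Dnajc3*, *Ero1b* and *Pdia6*) and in 2 of 14 degradation genes (*Derl3* and *Syvn1*). These matches describe letters in the windows and not bound sites. Over the whole promoter table, 37 genes held an ERSE and 14 of these were tested, with a median log2 fold change of 0.097. Of the 14, 1 was higher (*Hspa5*) and 1 lower (*Adcy3*), 7.14% each, near the 6.70% and 5.65% of all genes tested. The 3 UPR genes with an ERSE had fitted log2 fold changes of 0.30 (*Hspa5*), 0.20 (*Calr*) and 0.13 (*Hsp90b1*), of which only the first passed the threshold. *Herpud1*, with the ERSE-II, had a change of -0.05. Tested genes of the other ER lists with an ERSE had changes from -0.016 (*Syvn1*) to 0.20 (*Pdia6*), and none passed.

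The libraries were checked before the genes were compared. Over all transcript rows, AclyM-KO replicate 2 had a total of 44507233 counts, 2.18 times the mean of the other libraries, which had between 19327459 and 23582992. With 1 transcript per gene, as in the comparison, its total was 25814853 and those of the others were between 11120034 and 13598887. In CPM, counts scaled to the effective size of each library, *Acly* was at 220.4, 232.9 and 235.8 CPM in control and at 93.3, 98.9 and 98.3 CPM in AclyM-KO libraries (log2 fold change -1.25, adjusted p = 5.58e-07 in edgeR), and its counts include the exons outside the deleted one. The defining macrophage markers *Cd68*, *Adgre1* and *Itgam* were present at mean levels of 2411, 1635 and 853 CPM in control macrophages. Markers of B cells and plasma cells, which have a very active UPR, summed to between 7.59 and 10.01 CPM in AclyM-KO and to at most 8.67 CPM in control libraries, nearly all of it *Sdc1*, and *Mzb1* had 0 counts in every library. The neutrophil list summed to between 23.6 and 25.7 CPM in control and between 23.8 and 24.2 CPM in AclyM-KO libraries, and the dendritic cell, fibroblast and erythroid lists to at most 1.36 CPM. The T cell list was nearly all *Cd4* (60.8 and 41.8 CPM), with *Cd3e* at 0 counts in every library. All 8 proliferation genes were higher in AclyM-KO macrophages, with summed levels of 388.9, 421.7 and 461.9 CPM in control and 558.3, 788.5 and 579.0 CPM in AclyM-KO replicates 1, 2 and 3. Of 7 macrophage markers, *Lyz2*, into which Cre is inserted, *Mertk* and *Csf1r* were lower, and the list summed to between 21471 and 22462 CPM in control and between 12438 and 15064 CPM in AclyM-KO libraries. The largest part of this sum was *Lyz2*, with means of 13305 CPM in control and 6437 CPM in AclyM-KO libraries. *Cd68*, *Adgre1*, *Itgam* and *Fcgr1* did not pass the threshold. Of 1416 genes past the threshold, 768 were higher and 648 lower, and with scaling by total counts alone the split was 919 higher and 508 lower.

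Per length of transcript, the chaperones *Calr*, *Hspa5* and *Hsp90b1* stood far above the sensors, whereas *Pdia4* was close to *Atf6* and *Dnajb9* below it. In RPKM (CPM per kilobase of transcript), the control means were 409.2 for *Calr*, 323.1 for *Hspa5*, 266.9 for *Hsp90b1*, 64.4 for *Xbp1*, 44.5 for *Pdia4*, 32.7 for *Atf6*, 26.3 for *Herpud1*, 22.1 for *Dnajb9*, 12.7 for *Ern1* and 11.2 for *Eif2ak3*. The highest of these levels was 36.7 times the lowest. In control macrophages no 2 neighbours in this order had overlapping libraries. The order of the means was the same in AclyM-KO macrophages, but there the libraries of *Calr* and *Hspa5*, of *Herpud1* and *Dnajb9*, and of *Ern1* and *Eif2ak3* overlapped. *Ern1*, for example, was at 9.14 to 10.7 RPKM and *Eif2ak3* at 9.32 to 9.62 RPKM in the AclyM-KO libraries.

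**Figure D1:**
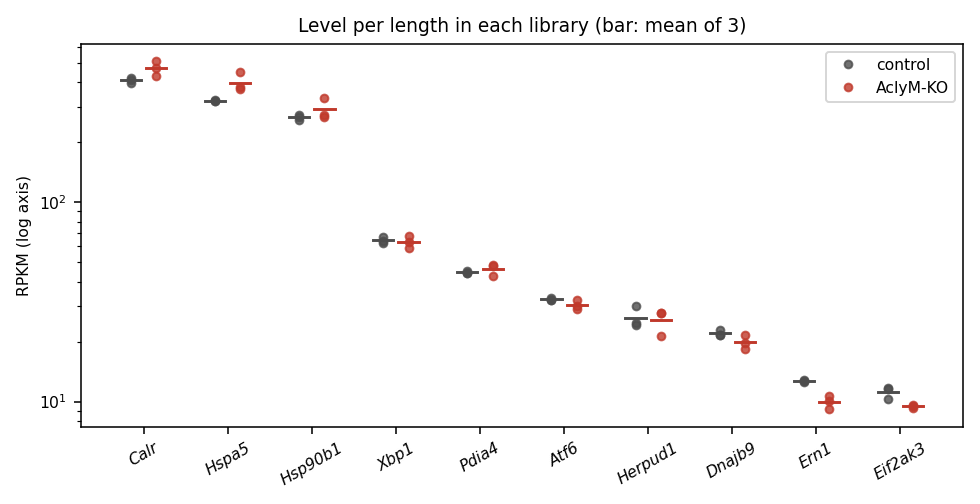
Level per transcript length (RPKM, log axis) of the 10 UPR genes in each of 3 control (grey) and 3 AclyM-KO (red) libraries, with bars at the group means. The 3 abundant chaperones sit above 250 RPKM and the sensors *Ern1* and *Eif2ak3* near 10 RPKM in both groups.

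Among the sensors, *Ern1* (NM_023913, mm10 chr11:106397620-106487796, minus strand) encodes IRE1α, the kinase and endoribonuclease of the most conserved arm. It was at 89.4, 87.0 and 88.1 CPM in control replicates 1, 2 and 3 and at 74.3, 63.5 and 70.1 CPM in AclyM-KO replicates 1, 2 and 3. Every AclyM-KO library was below every control library, and the lowest was replicate 2. This library had the most proliferation transcripts and the lowest macrophage marker sum, of which *Lyz2* is the largest part. The part of these differences in the *Ern1* result was not tested. The mean fell from 88.1 ± 1.20 to 69.3 ± 5.44 CPM (± SD over 3 libraries a group), and the fitted log2 change was -0.35 (95% interval -0.52 to -0.18, adjusted p = 0.0125 in edgeR). In bulk RNA, less of a transcript per cell and fewer cells that express it cannot be told apart. The change was -0.29 without AclyM-KO replicate 2 (adjusted p = 0.00300 in edgeR). With control replicate 1, 2 or 3 left out it was between -0.36 and -0.34, and the adjusted p rose to between 0.0549 and 0.0682 in edgeR.

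*Eif2ak3* (NM_010121, chr6:70844484-70905241, plus strand) encodes PERK. Its levels were 52.6, 51.9 and 46.6 CPM in control and 42.7, 43.4 and 42.1 CPM in AclyM-KO libraries. The groups did not overlap here either, which held for 32.8% of all tested genes, 16.6% with the AclyM-KO libraries below. The log2 fold change of -0.24 (95% interval -0.41 to -0.06) had an adjusted p of 0.0788 in edgeR and did not pass the threshold over all genes. It passed with limma-voom and sample weights (adjusted p = 0.0329) and without AclyM-KO replicate 2 (adjusted p = 0.0307 in edgeR). An exon of *Gm43292* overlaps *Eif2ak3* on the opposite strand, and reads of the pair may be shared, since the counting used its tool's default settings and which strand these count was not checked here.

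*Atf6* (NM_001081304, chr1:170704457-170868585, minus strand) encodes the sensor that is itself a membrane-bound transcription factor. It was the most abundant sensor per length of transcript, and its levels were 235.0, 234.4 and 240.5 CPM in control and 217.9, 235.4 and 212.3 CPM in AclyM-KO libraries. AclyM-KO replicate 2 lay within the control range and replicates 1 and 3 below it. The log2 fold change was -0.09 with a 95% interval from -0.23 to 0.05 (adjusted p = 0.404 in edgeR), and 0 of 15 alternatives passed the threshold, with the lowest adjusted p at 0.0665. The 3 sensors thus had negative fitted changes, of which 1 passed the test.

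*Xbp1* (NM_013842, chr11:5520641-5525993, plus strand) encodes the substrate of IRE1 and the transcription factor made after splicing. Its total mRNA was at 133.2, 141.6 and 136.2 CPM in control and 134.8, 126.1 and 143.7 CPM in AclyM-KO libraries, so the AclyM-KO values spanned the control range. The log2 fold change of -0.02 (95% interval -0.18 to 0.13, adjusted p = 0.863 in edgeR) limits a difference of total *Xbp1* to less than 0.18 on the log2 scale at this confidence. The table has a row for the unspliced (NM_013842) and for the spliced form (NM_001271730), which share nearly all of their sequence and therefore nearly all of their counts. The unspliced row exceeded the spliced row by 7, 8 and 5 counts in control and by 6, 19 and 2 counts in AclyM-KO libraries, against 1465 to 3338 counts in all. *Xbp1* splicing, the direct product of IRE1 activity, was therefore not measured by these counts.

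**Figure D2:**
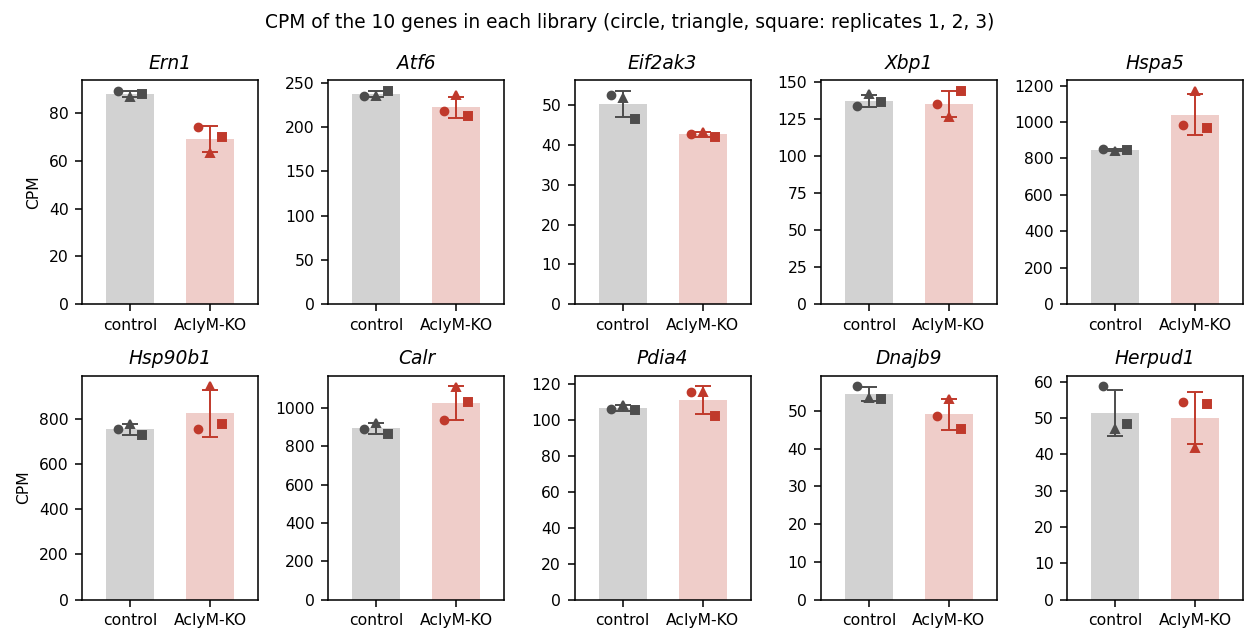
Depth-normalized level (CPM, axes from 0) of each of the 10 genes, with bars and error bars for mean and SD of 3 libraries and 1 symbol per replicate. *Hspa5* and *Calr* were higher and *Ern1* and *Eif2ak3* lower in all 3 AclyM-KO libraries than in any control library, while the groups overlapped in the other 6 genes. Over all genes tested, the groups did not overlap in 32.8%, with 16.3% above and 16.6% below in AclyM-KO libraries.

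Of the chaperones, *Hspa5* (NM_001163434, chr2:34772090-34776529, plus strand) encodes BiP, the Hsp70 of the ER lumen and the usual marker of UPR activity. It was at 849.2, 838.9 and 844.9 CPM in control and at 985.7, 1170.3 and 964.3 CPM in AclyM-KO libraries. All AclyM-KO libraries were above all control libraries, and replicate 2 stood above the other 2. The mean rose from 844.3 ± 5.17 to 1040.1 ± 113 CPM (± SD over 3 libraries a group), and the fitted log2 change was 0.30 (95% interval 0.13 to 0.47, adjusted p = 0.0275 in edgeR). Without AclyM-KO replicate 2, the library with the most proliferation transcripts, the change was 0.21 (adjusted p = 0.00244 in edgeR). With control replicate 1, 2 or 3 left out the change was 0.30 each time and the adjusted p was between 0.107 and 0.112 in edgeR. The part of the proliferation and macrophage marker differences in this result was not tested.

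*Calr* (NM_007591, chr8:84842088-84846931, minus strand) encodes calreticulin, the calcium-binding lectin chaperone of newly made glycoproteins. It was at 893.0, 921.0 and 866.7 CPM in control and 937.5, 1111 and 1031 CPM in AclyM-KO libraries. The groups did not overlap, as in the 16.3% of all tested genes with every AclyM-KO library above, but AclyM-KO replicate 1 was close to control replicate 2. The log2 fold change of 0.20 (95% interval 0.04 to 0.36) had an adjusted p of 0.0974 in edgeR. It passed the threshold without AclyM-KO replicate 1 (0.26, adjusted p = 0.0312 in edgeR) and with limma-voom and sample weights (0.16, adjusted p = 0.0308).

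*Hsp90b1* (NM_011631, chr10:86690841-86705444, minus strand) encodes GRP94, the Hsp90 of the ER, which folds Toll-like receptors and integrins in macrophages. Its levels were 756.6, 776.6 and 728.4 CPM in control and 754.6, 943.8 and 775.2 CPM in AclyM-KO libraries. Only AclyM-KO replicate 2 was above the control range. The log2 fold change was 0.13 (95% interval -0.06 to 0.32, adjusted p = 0.363 in edgeR), and it was 0.02 without AclyM-KO replicate 2. Its exons overlap *1810014B01Rik* on the opposite strand and *Gm15344* and *Gm25745* on the same strand, and reads of such pairs may be shared.

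*Pdia4* (NM_009787, chr6:47796141-47813512, minus strand) encodes the disulfide isomerase ERp72. It was at 106.2, 108.4 and 105.5 CPM in control and 115.6, 115.3 and 102.2 CPM in AclyM-KO libraries, 2 above and 1 below the control range, with a log2 fold change of 0.06 (95% interval -0.10 to 0.22, adjusted p = 0.656 in edgeR). It was 0.02 without AclyM-KO replicate 1, 0.03 without replicate 2 and 0.11 without replicate 3. *Dnajb9* (NM_013760, chr12:44205897-44210068, minus strand) encodes ERdj4, a BiP co-chaperone that is a target of XBP1 and represses IRE1. It was at 56.5, 53.4 and 53.2 CPM in control and 48.7, 53.2 and 45.2 CPM in AclyM-KO libraries. AclyM-KO replicate 2 lay at the lower edge of the control range and the others below it, and the log2 fold change was -0.14 (95% interval -0.33 to 0.04, adjusted p = 0.306 in edgeR). It was -0.21 without AclyM-KO replicate 2 (adjusted p = 0.0521 in edgeR) and -0.09 without AclyM-KO replicate 3 (adjusted p = 0.567 in edgeR). *Herpud1* (NM_022331, chr8:94386429-94395371, plus strand) encodes HERP, a ubiquitin-like membrane protein of ER-associated degradation. Its levels of 58.7, 47.1 and 48.4 CPM in control and 54.4, 41.8 and 54.0 CPM in AclyM-KO libraries overlapped. It had the widest interval of the 10 genes (log2 fold change -0.05, 95% interval -0.31 to 0.21, adjusted p = 0.844 in edgeR).

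**Figure D3:**
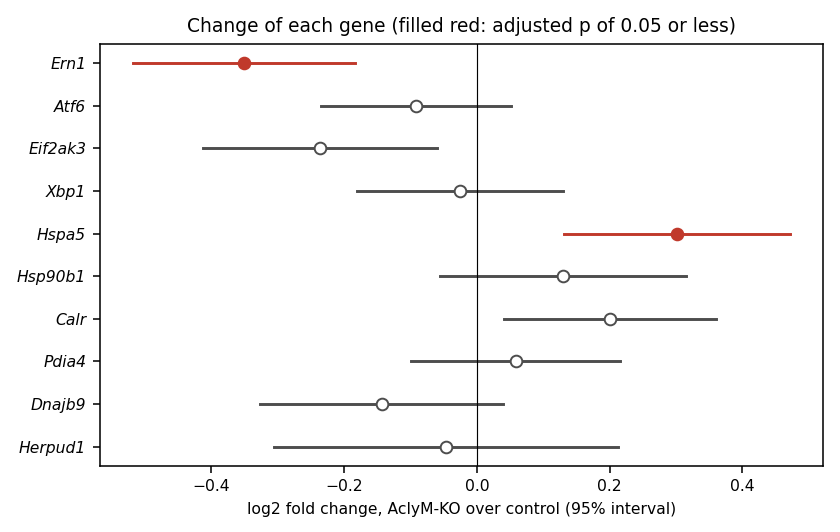
Log2 fold change of AclyM-KO over control with its 95% interval from edgeR for each of the 10 genes, filled where the adjusted p was 0.05 or less. *Ern1* at -0.35 and *Hspa5* at 0.30 passed, and the intervals of *Eif2ak3* and *Calr* also left out 0 before adjustment.

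In the scale-free ratio of *Hspa5* to *Ern1* counts, a measure chosen after both changes were seen, control libraries held 9.50, 9.64 and 9.60 *Hspa5* counts per *Ern1* count. AclyM-KO libraries held 13.3, 18.4 and 13.8. Each *Hspa5* to *Ern1* ratio is taken within 1 library, so it does not depend on how libraries are scaled to each other. It pairs the gene that rose with the gene that fell, so its separation of the groups is no further support for either change. Among the 10 genes, replicates 1, 2 and 3 were the highest or the lowest library of their group in 6, 8 and 6 genes in control and in 5, 9 and 6 genes in AclyM-KO macrophages. The sum over all 10 genes, dominated by the abundant chaperones, was between 3159 and 3260 CPM in control and between 3366 and 3904 CPM in AclyM-KO libraries.

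The rest of the ER folding machinery was described with 6 lists of 89 genes in all, of which 85 passed the filter. Of these, 4 were higher and 1 was lower in AclyM-KO macrophages, beside 6.70% and 5.65% of all genes, with a median log2 change of 0.02. The list counts that follow are to be read against the shares of all genes called in the same way. At an unadjusted p under 0.05 in edgeR these were 13.9% higher and 13.3% lower, in DESeq2 5.96% and 5.16%, and in limma-voom with sample weights 9.68% and 9.39%. Among 20 ER chaperones and foldases, 1 was higher and 0 lower in edgeR (3 and 0 at an unadjusted p under 0.05, 1 and 0 in DESeq2, 2 and 0 in limma-voom). The fitted change was positive in 15 of 20, beside 50.0% of all genes, with a median of 0.08. The higher gene was *Sdf2l1*, a component of ER chaperone complexes, which rose from 41.9, 47.5 and 43.4 CPM to 58.1, 61.3 and 56.6 CPM with no overlap (log2 change 0.41 ± 0.081 (SE), adjusted p = 0.00766 in edgeR). Without control replicate 1 the adjusted p became 0.0576 in edgeR. *Hyou1*, the nucleotide exchange factor of BiP, had a change of 0.20 (adjusted p = 0.0723 in edgeR), *Pdia6* of 0.20 (adjusted p = 0.127), *Pdia3*, the partner isomerase of calreticulin, of 0.15 (adjusted p = 0.253), and the membrane lectin *Canx* of 0.12 (adjusted p = 0.305). In these 4 genes every AclyM-KO library was above every control library, though none passed the threshold. Over the whole list this held for 6 of 20 genes, with *Sdf2l1* and *Sdf2* (change 0.15, adjusted p = 0.213 in edgeR), and the reverse for 0, beside 16.3% and 16.6% of all genes. *P4hb*, the most studied disulfide isomerase, was at 556.4 ± 4.28 and 564.9 ± 15.3 CPM (SD, n = 3 each), and its log2 change was 0.02.

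ER-associated degradation exports misfolded proteins to the proteasome. Of its 17 tested genes, 1 was higher and 0 were lower in edgeR (1 and 1 at an unadjusted p under 0.05, 0 and 0 in DESeq2, 1 and 1 in limma-voom), a share near that of all genes. The median log2 change was -0.02. *Vcp*, the ATPase that pulls substrates out of the membrane and also serves many other pathways, rose from 163.7 ± 4.33 to 192.2 ± 12.1 CPM (SD, n = 3 each; log2 change 0.23, adjusted p = 0.0480 in edgeR). This call was lost in DESeq2 (adjusted p = 0.0535), without any 1 control library (0.129 to 0.192 in edgeR) and without AclyM-KO replicate 1 (0.0885 in edgeR). It was also lost with a block for the replicate number (0.0610 in edgeR). The ligase complex itself had small fitted changes, with *Sel1l* at -0.0012 (95% interval -0.14 to 0.13) and *Syvn1* at -0.02 (95% interval -0.25 to 0.21). *Os9*, a lectin that selects substrates, had a change of -0.22 without overlap of the groups (adjusted p = 0.0563 in edgeR). It was the 1 gene of the list with every AclyM-KO library below, and 3 of 17 had every AclyM-KO library above, near the 16.3% of all genes.

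None of 17 translocation genes passed the threshold in edgeR (1 higher and 0 lower at an unadjusted p under 0.05, 0 in DESeq2, 1 higher and 2 lower in limma-voom, near its 9.68% and 9.39% of all genes), and the median log2 change was 0.02. *Sec61a1*, the channel subunit, was at 206.1 ± 5.94 and 200.5 ± 8.32 CPM (SD, n = 3 each). The lowest fitted value of the list, -0.64 for the small subunit *Sec61g*, came with overlapping groups (8.48 to 13.4 CPM in control and 3.14 to 9.52 CPM in AclyM-KO libraries, adjusted p = 0.194 in edgeR). None of 12 tested genes of ER export and KDEL retrieval passed it either, in edgeR, DESeq2 or limma-voom, and 0 had an unadjusted p under 0.05, with a median of -0.04. The retrieval receptors, which return BiP and calreticulin from the Golgi, had changes of -0.18 (*Kdelr1*, adjusted p = 0.247 in edgeR) and -0.06 (*Kdelr2*, adjusted p = 0.665).

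Among 12 tested partners of the sensors, 1 was lower and 0 higher in edgeR, DESeq2 and limma-voom alike, and at an unadjusted p under 0.05. This was *Creb3l2*, which encodes a membrane-bound transcription factor released by the same proteases as ATF6, at 16.7, 17.5 and 19.8 CPM in control and 11.2, 9.60 and 12.7 CPM in AclyM-KO libraries (log2 change -0.71 ± 0.135 (SE), adjusted p = 0.00627 in edgeR). The proteases shared by ATF6 and SREBPs had changes of 0.10 (*Mbtps1*, adjusted p = 0.391 in edgeR) and -0.06 (*Mbtps2*, adjusted p = 0.646), and the relative of ATF6, *Atf6b*, of -0.15 (adjusted p = 0.384).

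Downstream of PERK, 2 of 7 tested genes were higher and 0 lower in edgeR (4 and 0 at an unadjusted p under 0.05, 3 and 0 in both DESeq2 and limma-voom), beside 6.70% and 5.65% of all genes in edgeR. The genes past the threshold in edgeR were *Atf4*, at 109.6, 129.4 and 113.9 CPM in control and 169.0, 242.1 and 182.7 CPM in AclyM-KO libraries (log2 fold change 0.75, adjusted p = 0.00247 in edgeR), and its target and inhibitor *Trib3* (1.37, adjusted p = 0.00205). *Atf4*, *Trib3* and *Creb3l2* passed under 15 of 15 alternatives. ATF4 is shared with stress pathways outside the ER. AclyM-KO replicate 2, with the most proliferation transcripts, was also the highest library in *Atf4*, *Trib3* and *Sdf2l1*, and the part of proliferation in these changes was not tested. *Ddit3*, which encodes the pro-apoptotic factor CHOP, was at 29.6, 32.1 and 34.6 CPM in control and 31.2, 44.4 and 32.7 CPM in AclyM-KO libraries, with a log2 fold change of 0.18 (95% interval -0.10 to 0.47, adjusted p = 0.406 in edgeR). The other tested genes of the list that did not pass were *Atf3*, a transcription factor induced by stress (0.29, adjusted p = 0.0556 in edgeR), *Eif2s1*, which encodes eIF2α (0.25, adjusted p = 0.139), and the phosphatase subunits that reverse PERK signalling, *Ppp1r15b* (0.08, adjusted p = 0.515) and *Ppp1r15a* (-0.20, adjusted p = 0.325). In *Atf3* and *Eif2s1*, as in *Atf4* and *Trib3*, every AclyM-KO library was above every control library, which is 4 of 7 genes beside 16.3% of all genes.

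**Figure D4:**
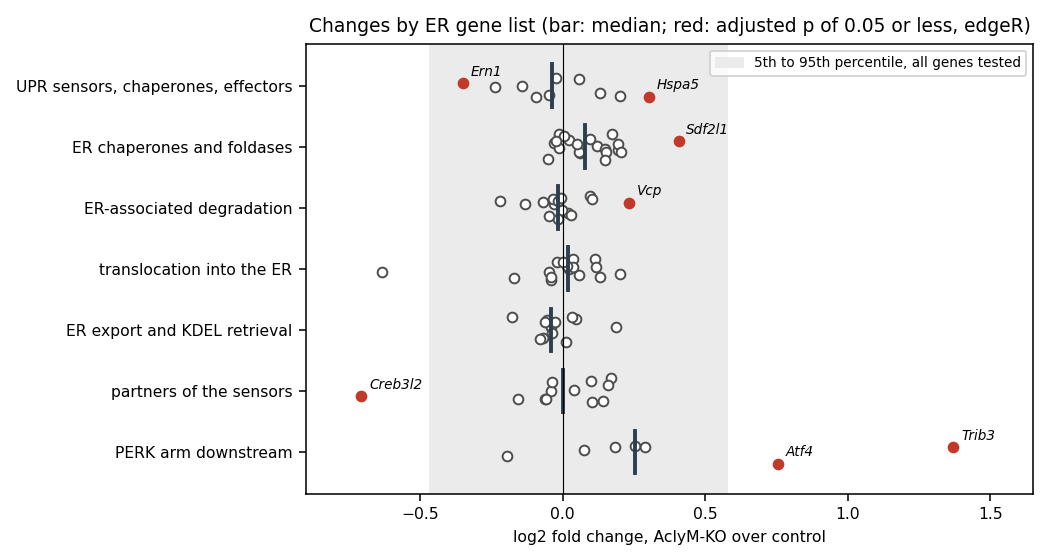
Log2 fold change of AclyM-KO over control for the 10 UPR genes and the tested genes of 6 other ER lists (1 point per gene, bar at the list median, grey band from the 5th to the 95th percentile of all genes tested). Points in red had an adjusted p of 0.05 or less in edgeR. Only *Atf4*, *Trib3* and *Creb3l2* among these red points lie outside the grey band.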

How the data were processed

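RNA-seq libraries were strand-specific (KAPA mRNA HyperPrep, HiSeq). Per the labels and methods, STAR 2.5.2b mapped the reads to mm10, SAMtools removed alignments of low mapping quality, and the authors deposited raw counts per RefSeq transcript from HOMER2 at its default settings, without normalization. The RefSeq release is not given in the sources used here. Of 12 value columns, 6 matched the labelled samples, and the other 6 were not used. Symbols came from a RefSeq table (35435 of 35745 rows) and GENCODE M21 (193 rows). Counts were tested with edgeR 4.0.16 in R 4.3.3 (filterByExpr, TMM, quasi-likelihood test on genotype alone, Benjamini-Hochberg adjustment over all genes). CPM used TMM-scaled library sizes, and RPKM was CPM per kilobase of the matching GENCODE M21 transcript. Totals per library over all transcript rows ranged from 19327459 to 44507233, and intervals are 95% intervals from the same fit. The replicates are described as technical ones from pooled mice, so each genotype is 1 pool and p-values measure only the spread between its libraries. Alternatives were DESeq2 1.42.0, limma-voom 3.58.1, other scalings and filters, all transcript rows, thinning of the deepest library, a replicate block and each library left out. The text names all 10 genes, the most changed genes past the threshold and some fixed members of each other list, the marker and proliferation lists, and *P4hb*, *Sdf2*, *Os9*, *Atf3*, *Eif2s1*, *Ppp1r15a*, *Ppp1r15b*, *Sec61g* and the genes with an ERSE, which were added after values were seen. Members and lists were chosen with earlier results of these data known. Replicates of 1 group differed by more than counting noise, so none were merged.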

Additional observations from a re-analysis of the deposited data

How the results depend on the processing

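The count of UPR genes higher in AclyM-KO macrophages, 1 in edgeR, was 2 with limma-voom and sample weights, 0 at a threshold of 0.01 and 0 to 2 when libraries were left out 1 at a time. The count of lower UPR genes, also 1, was 2 with limma-voom and sample weights, 0 at a threshold of 0.01 and 0 to 2 with each library left out. Leaving out any 1 control library removed the calls of *Hspa5* and *Ern1*, while their log2 fold changes were 0.30 and between -0.36 and -0.34. Under these 3 settings, with 2 control libraries left, all genes past the threshold fell from 1416 to between 598 and 658, whereas without AclyM-KO replicate 2 they numbered 2136, with limma-voom 2187 and over all transcript rows 2446 of 18933. *Hspa5* and *Ern1* passed under the other 12 of 15 alternatives each. Among the other ER genes, the higher count of 4 was 7 with limma-voom and sample weights and 2 to 7 with each library left out, and the lower count of 1 was 2 without a filter on low counts, 4 with limma-voom and sample weights and 1 to 4 with each library left out. The replicate block, for numbers that nothing in the labels pairs (correlations of same-numbered deviations 0.09, 0.11 and -0.05), gave 2 lower ER genes, lost *Vcp* (adjusted p = 0.0610 in edgeR) and changed no call of a UPR gene. The sign of *Xbp1* was positive with total counts only (0.0096), with limma-voom (0.017) and without AclyM-KO replicate 2 (0.025), and that of *Herpud1* with limma-voom (0.052), without control replicate 1 (0.059) and without AclyM-KO replicate 2 (0.082), while leaving out libraries moved *Xbp1* between -0.073 and 0.025 and *Herpud1* between -0.12 and 0.082, with an adjusted p of at least 0.566 under every alternative. The cause of these shifts was not tested. The alternatives for *Sdf2l1*, *Vcp*, *Creb3l2*, *Atf4* and *Trib3* were chosen after seeing the data. With 3 libraries a group, 95% intervals of the 10 genes reached 0.14 to 0.26 on the log2 scale to each side, so differences below this size could not be resolved from 0.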
